A study of Homo sapiens with 2 samples.

Results

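Collagens are the main structural proteins of the extracellular matrix, and each molecule is built from 3 chains wound into a triple helix. Fibrillar collagens form the cables of connective tissue. Type IV collagen forms the sheet-like network of basement membranes, on which epithelial cells such as thyroid follicular cells rest. FACIT collagens (fibril-associated collagens with interrupted triple helices) sit on the surface of fibrils. The remaining types include those of beaded filaments, anchoring fibrils, hexagonal networks and membrane-spanning chains. All protein-coding genes whose symbol has the form COL, number, A, number were taken, which gave 44 of the 58884 genes measured. They comprised 11 fibrillar, 6 basement membrane (type IV), 10 FACIT and 17 other chain genes.

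RNA came from TPC-1 cells, a line derived from a human papillary carcinoma of the thyroid. They were transfected with siRNA directed at XPR1, the cellular phosphate exporter, or with control siRNA. Each treatment was represented by 1 library, so no value below has a replicate check and no test of the treatments was possible. The label reads siRNA targeting XPR1 and does not say whether this is 1 sequence or a pool. Effects of the siRNA on other transcripts and effects of losing XPR1 therefore cannot be told apart. Levels are TPM, a share of all transcripts corrected for gene length, from about 15150000 counted reads in the XPR1 siRNA library and 15780000 in the control library. XPR1 was 5.31 TPM in the XPR1 siRNA library and 39.2 TPM in the control library, or 13.5% of control, with an interval of 11.6% to 15.7%. In bulk RNA, fewer cells that express a gene and less RNA per cell cannot be told apart. Intervals below are 95% Clopper-Pearson intervals from reads recovered from the TPM values, and they cover counting error only.

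The thyroid and epithelial identity of the line was only partly visible. Of 7 thyroid follicular markers, 3 reached a mean of 1 TPM, led by the thyroid transcription factor PAX8 at 408.6 TPM in the XPR1 siRNA library and 588.1 TPM in the control library, while NKX2-1 and TSHR were listed at 0 in both. Of 6 epithelial markers, 3 reached that minimum, and the list summed to 135.5 TPM in the XPR1 siRNA library and 197.2 TPM in the control library. The keratins KRT18 and KRT8 made up most of it, KRT7 was 3.39 TPM in the XPR1 siRNA library and 11.1 TPM in the control library, and the surface marker EPCAM was listed at 0 in both. Of 10 fibroblast markers, 4 reached a mean of 1 TPM. Their list summed to 191.2 TPM in the XPR1 siRNA library and 158.5 TPM in the control library, mostly from PDPN, and DCN, FAP and DPT were listed at 0 in both libraries. The 6 endothelial markers summed to 1.70 and 2.75 TPM and the 6 leukocyte markers to 0.826 and 0.457 TPM, in the XPR1 siRNA and control libraries in that order. The 5 markers of pericytes and smooth muscle summed to 14.3 TPM in the XPR1 siRNA library and 11.4 TPM in the control library. Among them PDGFRB was 3.15-fold higher in the XPR1 siRNA library and RGS5 3.99-fold lower. The part of these cell type markers in the collagen values was not tested.

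Collagen chain transcripts were more abundant in the XPR1 siRNA library, and a few chains of different types carried the widest differences. Summed over the 44 genes, they made up 1705 TPM in the XPR1 siRNA library and 1239 TPM in the control library, a ratio of 1.38. A mean of 1 TPM over both libraries was reached by 19 of the 44 genes. On the log2(TPM + 1) scale, 5 of these 19, namely COL12A1, COL1A1, COL5A1, COL4A4 and COL4A5, were higher in the XPR1 siRNA library by 2-fold or more. Only COL16A1 was lower by as much. With a pseudocount of 5 in place of 1, COL1A1 (0.95 on the log2 scale), COL4A4 (0.74) and COL16A1 (-0.96) no longer reached 2-fold. Of the 11698 protein-coding genes that reached the same minimum, 8.75% were higher and 4.57% lower by 2-fold or more, and of all 16319 genes that reached it, 10.4% were higher and 8.57% lower. At 1.5-fold, 7 of the 19 were higher and 3 lower, against 20.7% and 11.1% of protein-coding genes. The median difference of the 19 was 0.35 on the log2 scale, against 0.10 for the protein-coding genes and 0.05 for all genes. Without a replicate, whether the collagen share differs from these backgrounds was not tested. COL4A4 passed the minimum only through its level in the XPR1 siRNA library, and COL11A2 only through its level in the control library. COL11A2, at a mean of 1.18 TPM, was the lowest gene above the minimum, and COL8A2, at 0.678 TPM, the highest below it.

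**Figure D1:**
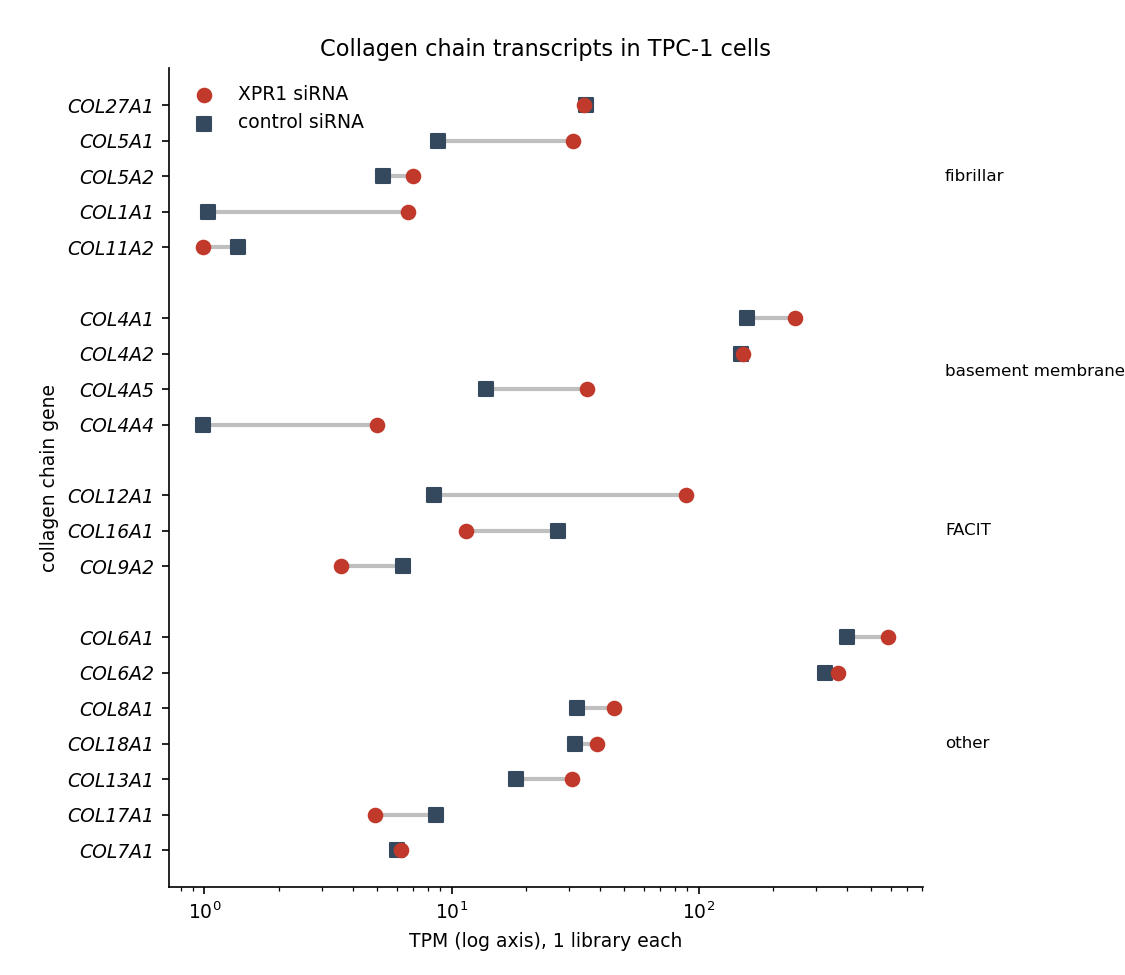
TPM (log axis) of the 19 collagen chain genes at or above 1 TPM on average, in the XPR1 siRNA library (red circles) and the control siRNA library (dark squares), grouped by collagen class and ordered by level. The grey line joins the values of a gene. COL12A1 spans the widest distance, at 89.0 TPM after XPR1 siRNA and 8.52 TPM in control, while COL27A1, COL4A2 and COL7A1 nearly coincide.

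Most collagen transcripts in these cells belonged to few genes. COL6A1, COL6A2, COL4A1 and COL4A2 together held 79.2% of the collagen TPM in the XPR1 siRNA library and 83.3% in the control library. COL6A1 was the most abundant chain, ranking 136 by level among protein-coding genes in the XPR1 siRNA library and 240 in the control library. At the other end, 25 genes stayed below a mean of 1 TPM. Of these, 9 were listed at 0 in both libraries: COL2A1, COL5A3, COL6A5, COL9A1, COL11A1, COL21A1, COL22A1, COL23A1 and COL26A1. For them a count of 0 allows up to 0.0771 to 0.234 TPM in the XPR1 siRNA library and 0.0742 to 0.225 TPM in the control library, depending on gene length.

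Fibrillar chains summed to 80.9 TPM in the XPR1 siRNA library and 52.0 TPM in the control library. COL27A1, a fibrillar chain best known from cartilage, was the most abundant of them at 34.5 TPM in the XPR1 siRNA library and 35.2 TPM in the control library, a ratio of 0.981 (0.922 to 1.04). Without it, the class summed to 46.4 and 16.8 TPM in that order of libraries, a ratio of 2.76, where the whole class gave 1.56.

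COL1A1 (ENSG00000108821, chromosome 17, 50183289 to 50201632 on GRCh38), the alpha 1 chain of type I collagen, was 6.67 TPM in the XPR1 siRNA library and 1.04 TPM in the control library, 6.43-fold higher (4.65 to 9.09). Its partner COL1A2, the alpha 2 chain of type I collagen, was listed at 0 in the XPR1 siRNA library and had 3 reads in the control library, or 0.0637 TPM. A count of 0 allows up to 0.0662 TPM of COL1A2 after XPR1 siRNA. The chains of type I collagen were thus far apart in level in both libraries. COL1A1 ranked 127 from the highest difference among the 11698 protein-coding genes.

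Type V collagen is incorporated into type I fibrils and limits their width. COL5A1 (ENSG00000130635, chromosome 9, 134641774 to 134844843) was 31.1 TPM in the XPR1 siRNA library and 8.79 TPM in the control library, 3.54-fold higher (3.17 to 3.96). COL5A2 was much closer, at 7.00 TPM in the XPR1 siRNA library and 5.28 TPM in the control library, a ratio of 1.33 (1.08 to 1.64), and COL5A3 was listed at 0 in both. The cartilage chain COL11A2 was 0.987 TPM in the XPR1 siRNA library and 1.37 TPM in the control library, with an interval of the ratio that includes equality (0.424 to 1.21). COL24A1, a fibrillar chain of developing bone, had 20 reads in the XPR1 siRNA library and 2 in the control library but stayed below the minimum, at 0.515 and 0.0495 TPM. COL3A1, the type III chain that accompanies type I in soft tissues, had 2 reads in the XPR1 siRNA library and 6 in the control library. It lies 19149 bases from COL5A2 on chromosome 2 in GENCODE 29.

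**Figure D2:**
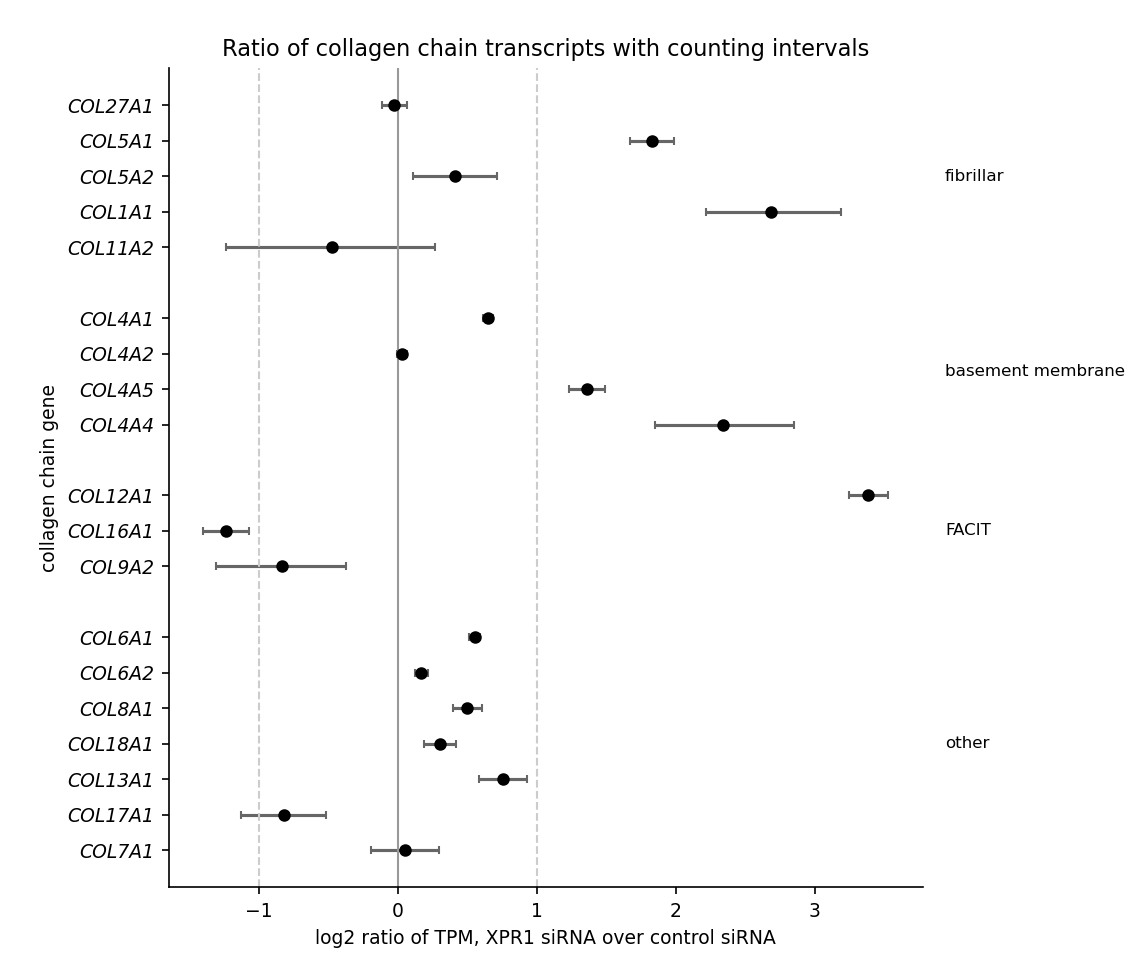
Log2 ratio of TPM, XPR1 siRNA over control siRNA, for the same 19 collagen chain genes, with 95% Clopper-Pearson intervals from the recovered reads. The solid line marks equality and the dashed lines 2-fold. The interval excluded equality for 15 genes, 12 above and 3 below, and included it for COL27A1, COL11A2, COL4A2 and COL7A1. The share of all genes whose interval excludes equality was not computed, so these counts have no background and describe counting error only.

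All 4 type IV chains at or above 1 TPM on average were at or above the control level in TPM, although COL4A2 turned with the scaling as given below. The class summed to 439.1 TPM in the XPR1 siRNA library and 321.2 TPM in the control library, a ratio of 1.37. The 6 type IV genes lie in 3 divergent pairs, in which the genes face away from each other and start close together. By the closest RefSeq starts of each pair, COL4A1 and COL4A2 are 127 bases apart on chromosome 13 and COL4A6 and COL4A5 380 bases on chromosome X. COL4A4 and COL4A3 are 419 bases apart on chromosome 2. Which starts these cells used was not measured.

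The windows around these starts are shown because the genes of each pair differed in level or in ratio while sharing this DNA. They run from 250 bases before to 50 bases after the start of the named gene, 5′ to 3′ on its strand, from RefSeq on GRCh38.p14. In the first, capitals mark the 128 bases from the start of COL4A1 to the start of COL4A2. In the other four, capitals mark the bases shared with the window of the partner gene, 82 for COL4A4 and COL4A3 and 121 for COL4A6 and COL4A5, which read as the opposite strand in the partner.
COL4A2, chr13:110307034-110307333, plus strand: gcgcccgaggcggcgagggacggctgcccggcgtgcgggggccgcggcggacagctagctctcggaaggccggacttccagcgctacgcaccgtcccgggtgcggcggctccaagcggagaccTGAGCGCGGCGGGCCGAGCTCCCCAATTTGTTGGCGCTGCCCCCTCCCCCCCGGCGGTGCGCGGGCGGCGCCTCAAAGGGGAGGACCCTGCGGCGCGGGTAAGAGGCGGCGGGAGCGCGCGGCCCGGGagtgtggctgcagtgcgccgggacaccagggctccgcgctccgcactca
COL4A4, chr2:227164156-227164455, minus strand: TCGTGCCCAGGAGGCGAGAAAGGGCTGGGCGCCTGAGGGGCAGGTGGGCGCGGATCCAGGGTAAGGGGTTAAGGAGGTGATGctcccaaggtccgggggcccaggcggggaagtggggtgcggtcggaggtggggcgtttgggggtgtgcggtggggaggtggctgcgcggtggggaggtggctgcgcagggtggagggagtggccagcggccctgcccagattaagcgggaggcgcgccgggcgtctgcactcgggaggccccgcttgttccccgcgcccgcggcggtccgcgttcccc
COL4A3, chr2:227164374-227164673, plus strand: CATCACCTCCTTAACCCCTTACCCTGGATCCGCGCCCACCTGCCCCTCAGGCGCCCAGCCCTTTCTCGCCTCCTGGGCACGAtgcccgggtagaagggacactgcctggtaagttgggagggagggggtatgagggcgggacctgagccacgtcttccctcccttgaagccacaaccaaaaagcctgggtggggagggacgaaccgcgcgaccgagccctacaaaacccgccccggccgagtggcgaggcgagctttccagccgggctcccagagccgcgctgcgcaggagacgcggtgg
COL4A6, chrX:108439409-108439708, minus strand: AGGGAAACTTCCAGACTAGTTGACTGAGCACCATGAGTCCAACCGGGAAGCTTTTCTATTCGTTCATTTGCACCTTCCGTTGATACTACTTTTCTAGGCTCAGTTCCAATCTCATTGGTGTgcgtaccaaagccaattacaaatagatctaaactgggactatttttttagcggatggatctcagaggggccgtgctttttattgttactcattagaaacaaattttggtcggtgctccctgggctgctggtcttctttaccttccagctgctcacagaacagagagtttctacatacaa
COL4A5, chrX:108439588-108439887, plus strand: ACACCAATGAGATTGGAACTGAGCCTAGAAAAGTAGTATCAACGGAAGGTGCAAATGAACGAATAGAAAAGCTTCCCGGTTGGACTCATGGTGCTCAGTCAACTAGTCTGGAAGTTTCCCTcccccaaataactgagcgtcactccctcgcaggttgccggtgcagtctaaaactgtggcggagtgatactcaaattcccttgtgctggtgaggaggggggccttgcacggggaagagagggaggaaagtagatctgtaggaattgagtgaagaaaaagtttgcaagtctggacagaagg

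COL4A1 and COL4A2 encode the chains of the type IV network found in nearly all basement membranes. COL4A1 (ENSG00000187498) was 246.7 TPM in the XPR1 siRNA library and 157.4 TPM in the control library, a ratio of 1.57 (1.53 to 1.61). COL4A2 (ENSG00000134871) was 151.9 TPM in the XPR1 siRNA library and 148.9 TPM in the control library, a ratio of 1.02 (0.995 to 1.05). The direction of COL4A2 turned to slightly lower in the XPR1 siRNA library with median-of-ratios scaling (-0.03 on the log2 scale) and with upper-quartile scaling (-0.06). The TPM ratio of COL4A1 to COL4A2 was therefore 1.62 in the XPR1 siRNA library and 1.06 in the control library, 1.54 times apart (exact interval from the 4 read numbers, 1.48 to 1.59). This quotient needs no scaling between libraries. The order of the chains within the control library depended on the length used: with the longest principal transcript in place of the union of exons, the ratios were 1.22 in the XPR1 siRNA library and 0.793 in the control library.

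In the other pairs of type IV genes one gene was near 0. COL4A5 (ENSG00000188153, chromosome X, 108439844 to 108697545), whose chain joins COL4A3 and COL4A4 in the kidney filter and COL4A6 in other basement membranes, was 35.3 TPM in the XPR1 siRNA library and 13.7 TPM in the control library, 2.57-fold higher (2.35 to 2.81). Its divergent neighbour COL4A6 had 4 reads in the XPR1 siRNA library and 3 in the control library. COL4A4 (ENSG00000081052, chromosome 2, 227002711 to 227164453) was 4.99 TPM in the XPR1 siRNA library and 0.988 TPM in the control library, 5.05-fold higher (3.61 to 7.22), from 204 and 42 reads. Its neighbour COL4A3 had 4 reads in the XPR1 siRNA library and 2 in the control library. With so few reads of COL4A6 and COL4A3, a change of the chain ratio between libraries was not detectable at this depth (exact intervals of the quotient 0.271 to 11.0 for COL4A5 to COL4A6 and 0.212 to 17.5 for COL4A4 to COL4A3).

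**Figure D3:**
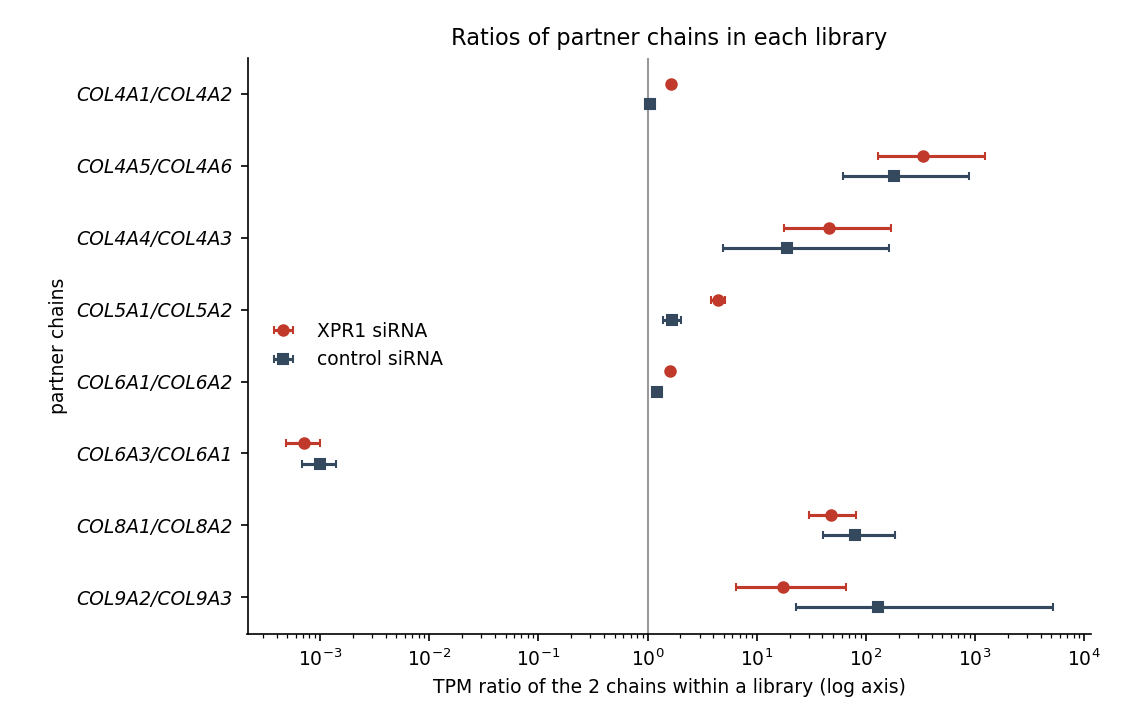
TPM ratio (log axis) of partner chains within the XPR1 siRNA library (red circles) and within the control siRNA library (dark squares), with 95% intervals from the read numbers. The vertical line marks equal levels. The ratios of COL4A1 to COL4A2, COL5A1 to COL5A2 and COL6A1 to COL6A2 are higher after XPR1 siRNA, with intervals that do not overlap those of the control library.

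Of the 10 FACIT chains, 3 reached a mean of 1 TPM, and these held the highest and the lowest ratio among the 19 collagen genes at that level. COL12A1 (ENSG00000111799, chromosome 6, 75084326 to 75206051), which coats type I fibrils in tendon, ligament and fascia, was 89.0 TPM in the XPR1 siRNA library and 8.52 TPM in the control library, 10.4-fold higher (9.47 to 11.5). It ranked 13 from the highest difference among the 11698 protein-coding genes. COL16A1 (ENSG00000084636, chromosome 1, 31652247 to 31704319), a FACIT chain found near cells in skin and cartilage, was 11.4 TPM in the XPR1 siRNA library and 27.0 TPM in the control library, 2.36-fold lower (2.11 to 2.64). COL9A2, a chain of the cartilage collagen type IX, was 3.56 TPM in the XPR1 siRNA library and 6.35 TPM in the control library, 1.78-fold lower (1.29 to 2.48).

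The FACIT sum of 104.5 TPM in the XPR1 siRNA library and 42.1 TPM in the control library, a ratio of 2.48, rested on COL12A1. Without it the class summed to 15.5 TPM in the XPR1 siRNA library and 33.6 TPM in the control library, a ratio of 0.461, so the direction turned. COL14A1, the chain most like COL12A1 in structure, was 0.218 TPM in the XPR1 siRNA library and 0.140 TPM in the control library. COL9A3, the type IX partner of COL9A2, had 4 reads in the XPR1 siRNA library and 1 in the control library.

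The windows of COL12A1 and COL16A1, with the highest and the lowest ratio among those 19 genes, are shown side by side. Capitals mark matches, on either strand, to any of 4 short motifs: the GC box GGGCGG, the TATA box TATAAA, the CCAAT box CCAAT and the AP-1 element TGANTCA.
COL12A1, chr6:75206004-75206303, minus strand: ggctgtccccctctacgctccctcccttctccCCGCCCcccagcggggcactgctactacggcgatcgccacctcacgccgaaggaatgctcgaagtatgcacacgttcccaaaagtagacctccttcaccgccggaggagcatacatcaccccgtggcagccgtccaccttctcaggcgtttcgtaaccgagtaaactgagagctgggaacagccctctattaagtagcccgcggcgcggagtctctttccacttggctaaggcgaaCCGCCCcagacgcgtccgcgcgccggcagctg
COL16A1, chr1:31703968-31704267, minus strand: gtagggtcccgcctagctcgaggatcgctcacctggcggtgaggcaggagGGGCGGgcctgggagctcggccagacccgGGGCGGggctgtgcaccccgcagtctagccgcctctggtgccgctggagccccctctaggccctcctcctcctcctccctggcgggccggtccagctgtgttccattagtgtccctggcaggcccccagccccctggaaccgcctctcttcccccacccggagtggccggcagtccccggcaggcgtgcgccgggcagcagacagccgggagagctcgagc
Each window held 2 matches to the GC box and none to the other motifs. The GC box occurred in 45.0% of all 35116 RefSeq windows of this length, the TATA box in 11.5%, the CCAAT box in 34.6% and the AP-1 element in 7.71%. Windows were found for 32 of the 44 collagen genes, some of which have several. Of their 44 windows, 24 held a GC box, 8 a TATA box, 14 a CCAAT box and 1, that of COL10A1, an AP-1 element. No motif contains another of the 4, and a match describes letters only.

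**Figure D4:**
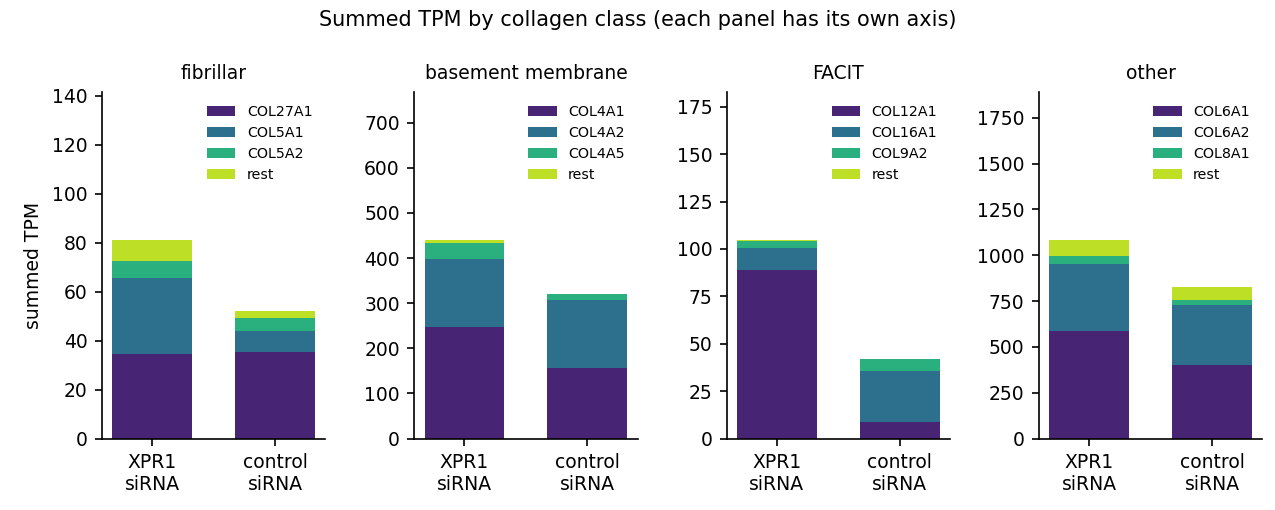
Summed TPM of each collagen class in the XPR1 siRNA library (left bar) and the control siRNA library (right bar), stacked by the 3 most abundant genes of the class and the rest. Each panel has its own axis from 0. COL12A1 makes up most of the FACIT bar after XPR1 siRNA, against COL16A1 in the control library.

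Type VI collagen forms beaded filaments around cells and supplied the most abundant collagen transcripts. COL6A1 was 585.9 TPM in the XPR1 siRNA library and 399.8 TPM in the control library, a ratio of 1.47 (1.43 to 1.51). COL6A2 was 366.3 TPM in the XPR1 siRNA library and 326.1 TPM in the control library, a ratio of 1.12 (1.09 to 1.16). Both are on the plus strand of chromosome 21, 93046 bases apart. The TPM ratio of COL6A1 to COL6A2 was 1.60 in the XPR1 siRNA library and 1.23 in the control library, 1.30 times apart (1.25 to 1.36). With principal transcript lengths these ratios were 1.30 in the XPR1 siRNA library and 0.993 in the control library, so the order of the chains in control depended on the length used.

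A type VI molecule needs the alpha 1 chain, the alpha 2 chain and an alpha 3, 5 or 6 chain. COL6A3 was only 0.414 TPM in the XPR1 siRNA library and 0.398 TPM in the control library, with 33 reads in each. COL6A6 had 1 read in the XPR1 siRNA library and 2 in the control library, and COL6A5 was listed at 0 in both. The TPM ratio of COL6A3 to COL6A1 was 0.000707 in the XPR1 siRNA library and 0.000996 in the control library, with an interval of the quotient that includes equality (0.424 to 1.19).

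None of the remaining chains reached the 2-fold threshold. COL13A1, a transmembrane collagen of cell adhesion sites, was 30.8 TPM in the XPR1 siRNA library and 18.2 TPM in the control library, a ratio of 1.69 (1.5 to 1.9). COL8A1, which forms hexagonal networks under endothelia, was 45.5 TPM in the XPR1 siRNA library and 32.2 TPM in the control library, a ratio of 1.41 (1.32 to 1.52). Its partner COL8A2 had 18 reads in the XPR1 siRNA library and 8 in the control library.

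COL18A1, a basement membrane chain outside type IV and so counted among the other chains, is cleaved at its end to endostatin. It was 39.0 TPM in the XPR1 siRNA library and 31.5 TPM in the control library, a ratio of 1.24 (1.14 to 1.34). Of its exonic bases, 16.4% overlap exons of SLC19A1 on the opposite strand, and the library kit does not mark strand. COL17A1, the hemidesmosome collagen of epithelial cells, was 4.91 TPM in the XPR1 siRNA library and 8.69 TPM in the control library, 1.77-fold lower (1.43 to 2.19). COL7A1, which forms the anchoring fibrils beneath epithelia, was 6.25 TPM in the XPR1 siRNA library and 6.04 TPM in the control library, a ratio of 1.04 (0.875 to 1.23), and turned on the log2 scale with median-of-ratios scaling (-0.0044) and with upper-quartile scaling (-0.03). COL10A1 of growth plate cartilage had 5 reads in the XPR1 siRNA library and 6 in the control library, and COL15A1 7 and 3. COL25A1, COL28A1 and the FACIT chains COL19A1 and COL20A1 had at most 2 reads in either library. Antisense or divergent transcripts named after collagen genes, 7 in the table, had at most 4 reads in either library.

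Before it can be used, a collagen chain is hydroxylated, glycosylated, folded, exported, trimmed and cross-linked. Among the genes of these steps that reached the minimum of 1 TPM, those past 2-fold are counted below, with the median log2 difference of each list. The protein-coding background for each count is 8.75% higher and 4.57% lower, with a median of 0.10. Hydroxylation and glycosylation enzymes numbered 13 (14 listed), of which 2 were higher in the XPR1 siRNA library, 0 were lower and the median was 0.44. These were P3H2, a prolyl 3-hydroxylase that acts on type IV collagen, at 510.1 TPM in the XPR1 siRNA library and 165.2 TPM in the control library (3.09-fold, 2.98 to 3.20), and P3H4, a partner of lysyl hydroxylase, at 65.5 TPM and 22.8 TPM in that order (2.88-fold, 2.55 to 3.26). P3H3 was 26.0 TPM in the XPR1 siRNA library and 13.0 TPM in the control library. The lysyl hydroxylase PLOD2 was 601.9 TPM in the XPR1 siRNA library and 338.7 TPM in the control library. P3H1 was 66.2 TPM in the XPR1 siRNA library and 41.1 TPM in the control library. P4HA1, a catalytic subunit of prolyl 4-hydroxylase named after its value was seen, ran the other way at 166.4 TPM in the XPR1 siRNA library and 237.0 TPM in the control library.

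All 15 listed genes of folding and export stayed within 2-fold, with a median of 0.14. SERPINH1, the collagen chaperone HSP47, was 65.5 TPM in the XPR1 siRNA library and 42.4 TPM in the control library. SEC13, a coat protein of vesicles that leave the endoplasmic reticulum, was 75.7 TPM in the XPR1 siRNA library and 42.4 TPM in the control library, the largest difference of the list on the log2 scale (0.82). The prolyl isomerases FKBP10 and FKBP14 were 1.36-fold and 1.37-fold higher. MIA3, which loads procollagen into carriers, was 59.3 TPM in the XPR1 siRNA library and 86.6 TPM in the control library.

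Genes of propeptide processing numbered 6 (10 listed), of which 3 were higher past 2-fold and 0 lower (median 1.01). ADAMTS3, which removes the amino-terminal propeptide, was 57.1 TPM in the XPR1 siRNA library and 9.57 TPM in the control library, 5.96-fold higher (5.26 to 6.77). The related ADAMTS14 was 3.05 TPM in the XPR1 siRNA library and 0.383 TPM in the control library, and thus passed the minimum only through the XPR1 siRNA library. TLL2, a tolloid-like protease of the family that removes carboxy-terminal propeptides, was 2.22-fold higher (1.98 to 2.48). With a pseudocount of 5, ADAMTS14 (0.58 on the log2 scale) and TLL2 (0.92) no longer reached 2-fold. The enhancers of that step differed in direction, with PCOLCE2 at 28.6 TPM in the XPR1 siRNA library and 14.5 TPM in the control library, and PCOLCE at 3.31 TPM and 6.44 TPM in that order.

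Cross-linking enzymes also numbered 6 (7 listed), of which 3 were higher past 2-fold and 0 lower (median 0.87). These were the lysyl oxidases LOXL4, at 69.8 TPM in the XPR1 siRNA library and 15.6 TPM in the control library (4.47-fold, 3.88 to 5.16), LOX (2.55-fold, 2.12 to 3.07) and LOXL1 (2.23-fold, 2.00 to 2.48). With a pseudocount of 5, LOX (0.93) no longer reached 2-fold. LOXL2, the most abundant lysyl oxidase, was 729.5 TPM in the XPR1 siRNA library and 909.0 TPM in the control library. TGM2, named after its value was seen, was 483.5 TPM and 551.9 TPM in that order. The whole list summed to 1716 TPM in the XPR1 siRNA library and 1742 TPM in the control library. PXDN, which makes the sulfilimine bonds of type IV collagen, was 343.5 TPM in the XPR1 siRNA library and 226.0 TPM in the control library.

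Collagen receptors numbered 7 (12 listed), of which 1 was higher past 2-fold and 2 lower (median -0.07). The collagen-binding receptor tyrosine kinase DDR1 was 20.4 TPM in the XPR1 siRNA library and 6.78 TPM in the control library, 3.01-fold higher (2.62 to 3.48). The integrin chain ITGA2 was 31.7 TPM in the XPR1 siRNA library and 120.4 TPM in the control library, 3.80-fold lower (3.54 to 4.07), and OSCAR was 2.32-fold lower (2.11 to 2.55). The integrin chain ITGA1 had a ratio of 0.926 (0.849 to 1.01) and the endocytic receptor MRC2 was 121.5 TPM in the XPR1 siRNA library and 98.7 TPM in the control library. Collagenases and gelatinases numbered 4 (6 listed), of which 2 were lower past 2-fold and 0 higher (median -1.49). MMP1, the interstitial collagenase, was 3.87 TPM in the XPR1 siRNA library and 454.1 TPM in the control library, and the gelatinase MMP9 was 2.21 TPM and 12.5 TPM in that order. MMP14 and MMP2 were 1.88-fold and 1.32-fold lower.

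The list of fibril-associated proteoglycans and glycoproteins also holds glycoproteins of basement membranes and other matrix glycoproteins. Of its 17 genes, 8 reached the minimum, of which 5 were higher past 2-fold and 0 lower (median 1.59). The 5 were THBS1, SPARC, TGFBI, the small proteoglycan BGN and NID2, which links type IV collagen to laminin. NID2 was 106.0 TPM in the XPR1 siRNA library and 45.8 TPM in the control library, and TGFBI 54.1 TPM and 12.8 TPM in that order. THBS1, a multi-domain matrix glycoprotein, was 316.0 TPM in the XPR1 siRNA library and 18.7 TPM in the control library, and the collagen-binding protein SPARC 1522 TPM and 372.7 TPM in that order. BGN was 6.45 TPM in the XPR1 siRNA library and 0.887 TPM in the control library, and passed the minimum only through the XPR1 siRNA library. With a pseudocount of 5 it no longer reached 2-fold (0.96). FN1, the most abundant gene of the list and named after its value was seen, ran the other way. It was 5109 TPM in the XPR1 siRNA library and 5898 TPM in the control library. Decorin (DCN) and fibromodulin (FMOD), small proteoglycans of fibrils in connective tissue, were listed at 0 in both libraries. So were PRELP, KERA, COMP and DPT, while LUM, ASPN and TNXB stayed below the minimum. The counts of this list thus do not describe fibril-associated genes as a class. Over all 7 lists, which hold 81 genes, 14 of the 59 that reached the minimum were higher past 2-fold and 4 lower (median 0.30).

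**Figure D5:**
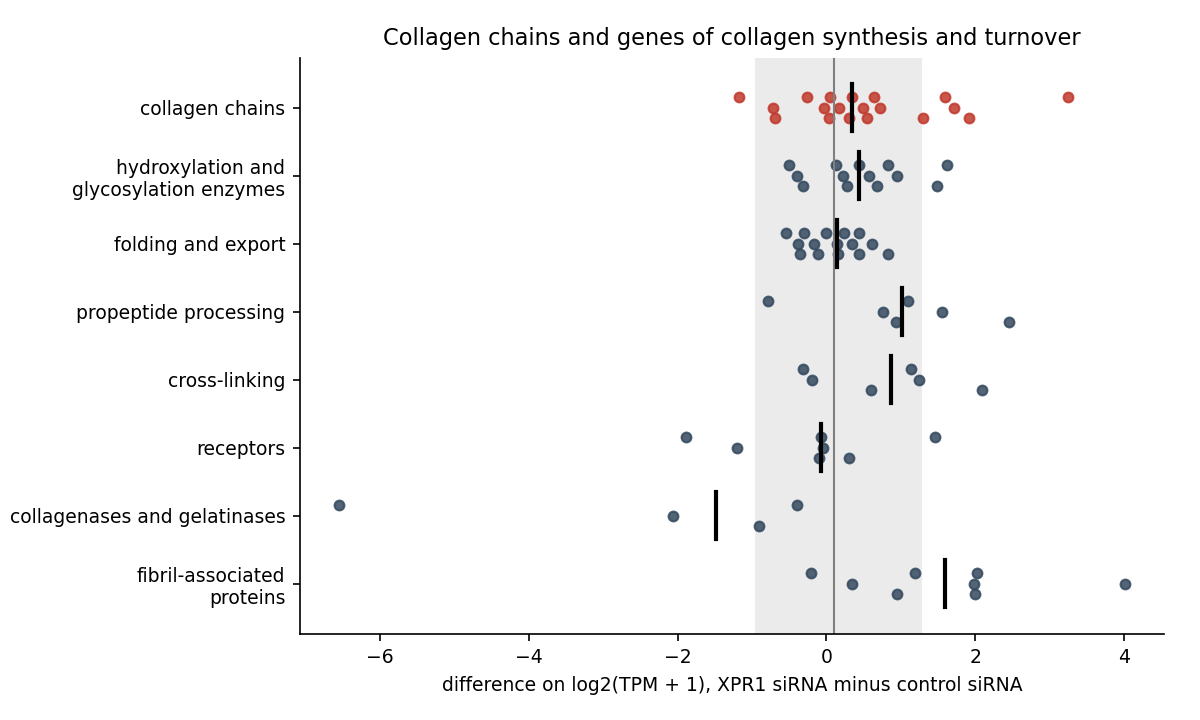
Difference on the log2(TPM + 1) scale, XPR1 siRNA minus control siRNA, for the collagen chain genes (red) and 7 lists of collagen-related genes (dark), for genes at or above 1 TPM on average. Each point is a gene, the short bar is the median of the list, the grey line is the median of protein-coding genes (0.10) and the grey band holds their central range from the percentile 5 (-0.94) to the percentile 95 (1.27).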

How the data were processed

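The 2 libraries were made with TruSeq RNA Library Prep Kit v2, per the labels' protocols. The authors deposited TPM values for 58884 Ensembl genes. FastQC, Trimmomatic 0.38, MultiQC and featureCounts 2.0.0 and the build GRCh38 come from the submitters' processing notes. Which aligner and annotation were used is not given in the sources used here. Symbols, gene types and exon lengths came from a table of gene identifiers (58472 matched) and GENCODE 29 (58611 matched). The union of exons served as gene length.

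Differences are log2(TPM + 1), XPR1 siRNA minus control siRNA, and folds and ratios are of TPM. Genes were counted at 2-fold where their mean was 1 TPM or more. Reads were recovered as TPM times length divided by a step (246.3 in the XPR1 siRNA library, 237.0 in the control library). Values lay within 0.01 of whole for 71.6% of genes above 0 in the XPR1 siRNA library and 72.0% in the control library, and up to 10 reads for 92.4% and 92.2% in that order. Both values were whole for 33 of the 44 collagen genes, but these include the 9 listed at 0 in both libraries, which are whole at any step. Among the 19 past the minimum, both were whole for 11, so intervals of the others are approximate. A count of 0 was taken to allow 3 reads. Without molecular identifiers, reads are not independent molecules. Recovery and calls were tested on simulated whole reads that used the same gene lengths. Genes whose length or counting differs in the deposited values were therefore not covered by that test. Python 3.11.15, pandas 2.3.3 and scipy 1.17.1 were used.

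The collagen genes, their classes, the 7 lists and the markers were chosen with earlier results of these data known. Every collagen gene at or above the minimum was to be named, and of each list the 5 genes with the largest difference. Genes outside this rule were named after their values were seen, as was the pair COL4A4 and COL4A3.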

Additional observations from a re-analysis of the deposited data

How the results depend on the processing

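No replicate could be left out. No paired analysis was possible because there is a single library of each treatment. XPR1 and the cell type markers were not run through the other settings. Among the collagen genes at the minimum and the genes named by rule from the 7 lists, 24 were past 2-fold. All 24 kept their direction under other pseudocounts, scalings and recovered reads, but this was fixed in advance. A pseudocount cannot turn a difference, and the largest scaling shift was -0.09 on the log2 scale. Recovered reads are the same TPM values rescaled. Of 144 such values, 137 stayed past 2-fold, which does not address the spread between replicates. The 7 that did not were from a pseudocount of 5, namely COL1A1, COL4A4, COL16A1, ADAMTS14, TLL2, LOX and BGN. With that pseudocount 3 collagen genes were at least 2-fold higher and 0 lower. With a minimum of 5 TPM 3 were higher and 1 lower. The share over all genes was not computed at either setting, so these counts have no background beside them. A 1.5-fold threshold gave 3 lower collagen genes, 5 higher hydroxylation and glycosylation enzymes, 2 higher genes of folding and export, 5 higher and 1 lower of propeptide processing, and 23 higher and 6 lower over all lists, beside a protein-coding background of 20.7% higher and 11.1% lower. The log2 ratio of summed collagen TPM, 0.46, was 0.40 with median-of-ratios and 0.37 with upper-quartile scaling, and 0.42 without COL6A1. Upper-quartile scaling gave 0.55 for fibrillar, 0.36 for basement membrane, 1.22 for FACIT and 0.30 for other chains, and median-of-ratios scaling 0.40 for basement membrane and 0.34 for other chains. Leaving out the most abundant gene gave 1.47 for fibrillar chains without COL27A1, 0.23 for basement membrane chains without COL4A1, 0.22 for other chains without COL6A1, and a turned direction of -1.12 for FACIT chains without COL12A1. With TPM + 1, the difference of the COL8A1 to COL8A2 ratio was 0.016 in place of -0.73 and thus turned, as COL8A2 is below 1 TPM. The quotient of COL1A1 to COL1A2 could not be computed in the XPR1 siRNA library, where COL1A2 was listed at 0. Low chains with few reads are limited by depth.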
